A study of Mus musculus with 8 samples.

Results

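The female arm of the bhlha9 knockout study was made of 2 libraries from bhlha9 KO females (KO 1 and KO 2) and 2 libraries from wild-type females (WT 1 and WT 2), out of 8 libraries in the series. The members were all genes that averaged 5 CPM or more over these 4 libraries, where CPM is a gene's count out of each 1000000 counts of its library. They numbered 11748 of the 55573 genes in the count table, and 10266 of them were protein coding. All 4 libraries came from adult mice and from GFP+ C-low-threshold mechanoreceptors (C-LTMRs) sorted by flow cytometry. Genotype, wild type or bhlha9 KO, was the only label that differed between the groups, and no other allele is named. The gene that drives GFP, the strain and the number of animals per library are not given in the sources used here. The 4 libraries were titled as 2 numbered replicates of each genotype, and the titles do not say whether a number pairs KO with WT. The series text calls its replicates biological, and the tests treat each library as 1 replicate. In bulk RNA such as this, fewer cells of a type and less RNA per cell cannot be told apart.

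C-LTMRs innervate hairy skin with unmyelinated endings and respond to gentle touch and cooling. They are known for tyrosine hydroxylase (Th), the vesicular glutamate transporter Slc17a8 and the secreted protein TAFA4 (Fam19a4), and they are distinct from the peptidergic nociceptors, which carry substance P and CGRP. Bhlha9 encodes a basic helix-loop-helix transcription factor, a class of protein that binds DNA as dimers at E-boxes, whose core letters are CANNTG.

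The deleted gene checked the labels. Bhlha9 (ENSMUSG00000044243, GRCm38 chromosome 11, 76672470 to 76673676, plus strand) read 137 and 128 CPM in WT 1 and WT 2, and 0.471 and 0.25 CPM in KO 1 and KO 2. Both KO libraries matched their labels. The log2 fold change of KO over WT was -8.54 ± 0.39 (SE), and it had the smallest p of all genes tested (edgeR quasi-likelihood test, adjusted p = 0.175). That adjusted p was above 0.05 with the 4 libraries alone. It was 0.00499 when all 8 libraries shared 1 estimate of the spread, and 0.000365 when the test was limited to genes of 5 CPM or more.

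The 300 bases around the start sites of Bhlha9, of Kdm6a (higher in KO) and of Gal (lower in KO) are shown because the deleted protein belongs to the class that reads E-boxes. Each runs from 250 bases before to 50 after the RefSeq start, 5′ to 3′, and CANNTG, which reads the same way on both strands, is in capitals.
Bhlha9 promoter, GRCm38.p6 chr11:76672220-76672519, plus strand: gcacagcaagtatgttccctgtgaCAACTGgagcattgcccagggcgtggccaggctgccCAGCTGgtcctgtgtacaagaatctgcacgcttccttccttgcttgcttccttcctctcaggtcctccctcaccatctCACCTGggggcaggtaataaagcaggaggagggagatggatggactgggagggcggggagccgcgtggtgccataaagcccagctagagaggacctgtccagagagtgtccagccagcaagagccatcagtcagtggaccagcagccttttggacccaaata
Kdm6a promoter, GRCm38.p6 chrX:18162325-18162624, plus strand: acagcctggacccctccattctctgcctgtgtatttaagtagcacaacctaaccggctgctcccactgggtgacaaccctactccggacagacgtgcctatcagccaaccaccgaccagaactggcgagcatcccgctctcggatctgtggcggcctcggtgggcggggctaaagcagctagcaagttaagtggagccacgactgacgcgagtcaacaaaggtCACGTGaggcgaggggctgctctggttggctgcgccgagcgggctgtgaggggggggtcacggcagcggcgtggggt
Gal promoter, GRCm38.p6 chr19:3414495-3414794, minus strand: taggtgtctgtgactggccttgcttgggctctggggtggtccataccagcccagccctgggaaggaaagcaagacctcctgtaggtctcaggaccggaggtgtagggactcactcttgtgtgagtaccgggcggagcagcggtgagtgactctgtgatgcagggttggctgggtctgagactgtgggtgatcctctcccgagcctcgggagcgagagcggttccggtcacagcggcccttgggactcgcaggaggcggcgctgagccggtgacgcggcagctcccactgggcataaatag
A match is a description and not a binding site. The Bhlha9 window held 3 matches, the Kdm6a window 1 and the Gal window 0. Of the 13 genes in the authors' deposited female table, 11 had a window that could be searched here, and 6 of these (54.5%) held at least 1 match. The share was 61.9% for the 8259 genes of 5 CPM or more with a window, and 72.1% for all 27025 genes with a window.

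Library totals ran from 50919885 to 71956309 counts, and 22088 to 23109 genes had at least 1 count. At this depth 3 counts were worth 0.0417 to 0.0589 CPM, so a mean of 5 CPM was far above the counting floor, although some described genes were at or under it in single libraries. The 4 libraries correlated with each other at 0.919 to 0.937 (Pearson's r across genes, log2(CPM + 1), genes not being independent). WT 1 against WT 2 gave 0.930 and KO 1 against KO 2 gave 0.924, and the closest pair was WT 1 with KO 2 (0.937). The biological coefficient of variation was 69%, and 2 residual degrees of freedom were available.

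No gene passed an adjusted p of 0.05 in edgeR's quasi-likelihood test of the 4 female libraries (0 of 19422 genes, 0%). At an unadjusted p under 0.05 there were 767 of the 19422 genes. Among the 11745 tested genes of 5 CPM or more there were 350, of which 200 were higher and 150 lower in KO. Both counts were under the 0.05 share of genes that this p gives on average where nothing differs. The folds below are therefore measured differences with their errors, and none of them passed the test. DESeq2's Wald test on the same counts passed 168 of 19157 genes (0.877%), 58 higher and 110 lower in KO. Of these, 45 were among the described genes, 15 higher and 30 lower, and 43 of the 45 had no overlap between KO and WT libraries. The DESeq2 count was 253 without WT 1, 116 without WT 2, 228 without KO 1 and 256 without KO 2. Its direction moved with the library left out, from 82 higher and 34 lower without WT 2 to 20 higher and 208 lower without KO 1.

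Across the described genes the 2 genotypes were centred on each other. The median log2 fold change was 0.007, and the interquartile range ran from -0.21 to 0.25. Both KO libraries were above both WT libraries in 1772 genes (15.1%) and below both in 1856 genes (15.8%). With a fold of at least 2 as well, there were 197 genes above (1.68%) and 212 below (1.8%). Large differences were more frequent at low levels. Among the 4172 genes of 5 to 20 CPM, 9.42% had KO and WT means more than 2-fold apart, while the 2 WT replicates were more than 2-fold apart in 22.5% and the 2 KO replicates in 23.1%. Among the 2243 genes of 100 CPM or more, no gene had genotype means more than 2-fold apart, and replicates were that far apart in 0.936% (WT) and 1.74% (KO).

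**Figure D1:**
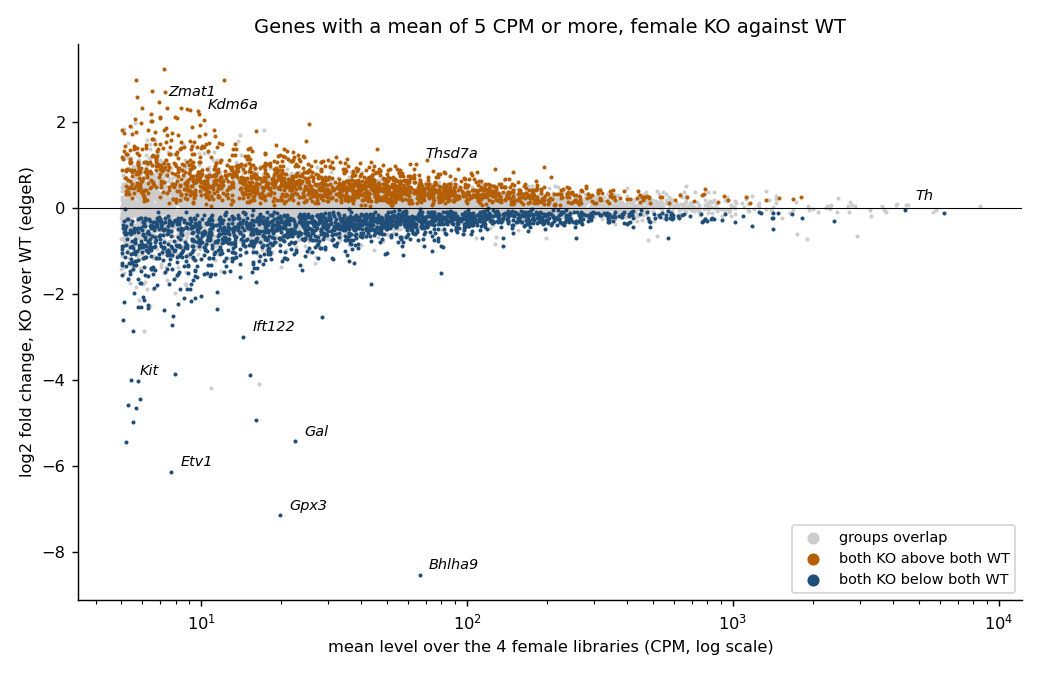
Log2 fold change of KO over WT (edgeR, vertical) against the mean level over the 4 female libraries (CPM, log scale), 1 point per gene of 5 CPM or more, without the 4 genes at 0 in both KO libraries. Orange and blue points have no overlap between genotypes, grey points overlap, and the spread narrows as the level rises, with Bhlha9 the lowest labelled point at -8.54.

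The authors' deposited table for females lists 13 genes, 3 with a positive and 10 with a negative fold change. None of the 13 overlapped between the genotypes here. The authors chose these genes on the same female libraries, so their separation and their close replicates are not independent evidence. Ift122, a subunit of the complex that carries cargo back down the cilium, read 24.8 and 26.2 CPM in the WT libraries and 2.67 and 3.67 CPM in the KO libraries. The 4 values formed 2 tight pairs, and the log2 fold change was -3.0 ± 0.39 (SE). In the authors' deposited table its log2 fold change was -1.85, and that of Bhlha9 was -6.05. For all 13 genes the table's value was smaller in size than edgeR's fold here. The submitters' processing notes name DESeq2 1.14.1, so the 2 sets of folds are not the same measure. Cbfa2t2, a transcriptional corepressor, formed 2 tight pairs as well, with 17.4 and 19.4 CPM in WT and 4.89 and 4.50 CPM in KO. Pcp4, a small peptide that binds calmodulin, read 168 and 187 CPM in WT and 105 and 85.6 CPM in KO (log2 fold change -0.89 ± 0.17). A second gene model, annotated as Igsf5, shares 243 exon bases with Pcp4 on the same strand and read 98.2, 109, 60.6 and 51.0 CPM in the same order of libraries. Reads in the shared bases were counted for both genes, so those 2 rows are not separate evidence.

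Another 6 genes of that table were lower in KO, and in each WT 2 was above WT 1. Etv1, an ETS-family transcription factor used by proprioceptive neurons, read 7.95 and 22.4 CPM in WT and 0.216 and 0.208 CPM in KO. Gal, the precursor of the neuropeptide galanin, read 19.7 and 68.8 CPM in WT and 0.687 and 1.32 CPM in KO. Gfra3, the receptor subunit for artemin, read 17 and 45.1 CPM in WT and 1.71 and 0.334 CPM in KO. The WT replicates of these 3 genes differed from each other by more than 2-fold, and both still stood far above the KO libraries. Adcyap1, the precursor of the neuropeptide PACAP, read 15.5 and 22.9 CPM in WT and 4.6 and 2.86 CPM in KO. Kit, the receptor for stem cell factor, read 7.67 and 12.8 CPM in WT and 0.943 and 0.334 CPM in KO. Lbr, the lamin B receptor of the inner nuclear membrane, read 5.56 and 17 CPM in WT and 0.432 and 0.584 CPM in KO. Gal, Adcyap1 and Kit also belong to a list of peptidergic afferent markers, which is described further on.

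The 3 genes with a positive fold in the authors' deposited table had replicates that lay close together. Kdm6a, an X-linked histone H3 lysine demethylase, read 3.77 and 3.37 CPM in WT and 16.5 and 15.5 CPM in KO (log2 fold change 2.17 ± 0.38). Zmat1, an X-linked gene for a zinc finger protein, read 2.04 and 2.19 CPM in WT and 12.3 and 11.2 CPM in KO (2.47 ± 0.45). Wdfy4, known for its part in antigen cross-presentation by dendritic cells, read 0.259 and 0.350 CPM in WT and 7.15 and 9.94 CPM in KO. Its mean over the 4 libraries was under 5 CPM, so it is not among the 11748 genes. Of 8 measured X-linked genes that are known to escape X inactivation, 2 were above WT without overlap (25%, against 15.1% of all genes). None were below (0%, against 15.8%). The 2 were Kdm6a and Usp9x, which read 43.8 and 18.6 CPM in WT and 48.3 and 45.3 CPM in KO. Kdm6a was under 5 CPM in both WT libraries and reached that mean through its KO level alone, so the count is a description only. The median log2 fold change of the 8 was 0.19, or -0.03 with tested members under 5 CPM included.

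**Figure D2:**
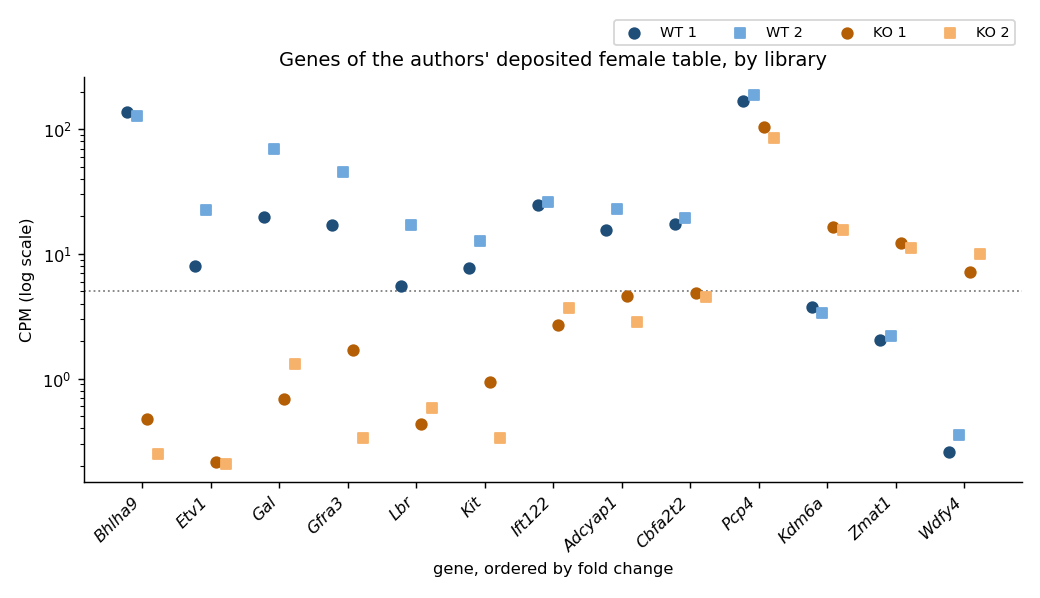
CPM (log scale) of the 13 genes of the authors' deposited female table in each female library, ordered by fold change, with a dotted line at 5 CPM. Blue symbols are WT and orange symbols KO, the 10 genes on the left are lower in both KO libraries, and the 3 on the right (Kdm6a, Zmat1, Wdfy4) are higher in both.

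The 20 genes higher in KO with the smallest p had varied functions. Stat5b, a transcription factor activated by cytokine receptors, read 36.5 and 44.8 CPM in WT and 88.5 and 74.7 CPM in KO (log2 fold change 1.01 ± 0.21). Nf1, the Ras inhibitor neurofibromin, read 3.47 and 2.73 CPM in WT and 20.1 and 9.95 CPM in KO. Both KO values of Nf1 were above both WT values, and they differed from each other by 2-fold. Gpr3, a receptor that raises cyclic AMP without a known ligand, read 4.70 and 4.90 CPM in WT and 15.2 and 16.3 CPM in KO (1.72 ± 0.37). Sp1, a general transcription factor, read 3.09 and 3.31 CPM in WT and 13.4 and 9.70 CPM in KO. Myo10, the myosin of filopodia, read 52.7 and 36.6 CPM in WT and 102 and 91.1 CPM in KO. The remaining genes of this group were Thsd7a, a membrane protein with thrombospondin repeats (47 and 38.4 against 91.2 and 81.3 CPM), and Fem1a, a substrate adaptor of a ubiquitin ligase (21.6 and 30 against 55.3 and 76.9 CPM). Stau1, which carries messenger RNA along dendrites, stood at 36.5 and 42.4 against 66.5 and 77.9 CPM. Mroh2b, Lrrc31, Snx29, Plaa, Elmsan1, St6galnac4, Fam120b, Syt14, Zfp868 and Nup88 completed the 20 with Kdm6a and Zmat1, and these 10 had log2 fold changes from 0.72 ± 0.18 for Nup88 to 2.24 ± 0.46 for Mroh2b.

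The 20 genes lower in KO with the smallest p held the 10 of the authors' deposited table and 10 others. Steap3, a reductase of the iron uptake pathway, read 12.0 and 16.6 CPM in WT and 4.08 and 3.67 CPM in KO (log2 fold change -1.88 ± 0.41). Apool, an X-linked subunit of the complex that shapes mitochondrial cristae, read 14.7 and 11.4 CPM in WT and 3.65 and 3.35 CPM in KO (-1.90 ± 0.42). Tmbim4, a membrane protein that restrains cell death, read 165 and 175 CPM in WT and 98.9 and 107 CPM in KO (-0.71 ± 0.16). Zbtb4, a zinc finger protein that binds methylated DNA, read 147 and 136 CPM in WT and 91.6 and 80.8 CPM in KO (-0.71 ± 0.17). In these 4 genes the replicates lay close and the genotypes were well apart. In others WT 2 carried most of the WT level. Faim2, an inhibitor of Fas-induced cell death, read 5.89 and 23.9 CPM in WT and 1.14 and 0.876 CPM in KO. Apold1, an endothelial early response gene, read 4.39 and 17.1 CPM in WT and 0.157 and 0.5 CPM in KO. Gpx3, a secreted glutathione peroxidase, read 15.4 and 63.3 CPM in WT and 0.570 and 0.0139 CPM in KO. Ier2 and Ier5l, immediate early response genes, were also in this group, Ier5l with 9.61 and 17.5 CPM in WT and 1.36 and 2.64 CPM in KO.

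Of the described genes, 4 had 0 counts in both KO libraries. Dcn, the collagen-binding proteoglycan decorin of fibroblasts, read 24.5 and 4.12 CPM in WT, so its WT replicates were far apart. Its 0 in KO gives no firm bound on the fold, since Tm4sf1 and Ly6a below were at 0 in WT 1 as well. The other 3 were Ly6e, Tm4sf1 and Ly6a, which are named after their values were seen, and nearly all of their WT signal came from WT 2 (48.0, 29.9 and 21.1 CPM, against 1.11, 0 and 0 CPM in WT 1). WT 2 stood apart in this way more often than the other libraries. It held 11 genes at 5 or more times the next highest library, against 1 in WT 1, 2 in KO 1 and 0 in KO 2.

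The label of the sort was checked against marker lists. Th read 4761 and 4046 CPM in WT and 3809 and 5302 CPM in KO, and the genotypes overlapped. Gfra2, the neurturin receptor subunit, read 475 and 462 CPM in WT and 471 and 591 CPM in KO, and Slc17a8 read 48.8 and 35.8 CPM in WT and 55.2 and 41.1 CPM in KO. Fam19a4 was above WT in both KO libraries, with 272 and 300 CPM in WT and 344 and 374 CPM in KO (log2 fold change 0.34 ± 0.16). All 14 C-LTMR markers were above 5 CPM, and 12 had a positive and 2 a negative fold. Without overlap, 4 were above WT (28.6%, against 15.1% of all genes) and 0 below. Their median log2 fold change was 0.19, and their summed level was 7970 to 9285 CPM in WT and 8520 to 10227 CPM in KO. The C-LTMR label therefore had its defining markers in all 4 libraries.

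Several markers of peptidergic nociceptors were lower in both KO libraries. Of 12 markers, 9 reached a mean of 5 CPM. Both KO libraries were below both WT libraries in 7 of these 9 (77.8%, against 15.8% of all genes) and above in 0. Of the 7, Gal, Gpx3, Kit, Adcyap1 and Trpv1 were under 5 CPM in both KO libraries and reached that mean through their WT level alone, so the count is a description only. The median log2 fold change was -2.36 over the 9 and -1.56 over all markers tested. The 3 markers under 5 CPM overlapped between the genotypes. Besides Gal, Gpx3, Kit and Adcyap1 the 7 held Tac1, the substance P precursor (269 and 365 CPM in WT, 243 and 147 CPM in KO), Calcb, the beta form of CGRP (416 and 459 against 413 and 269 CPM), and Trpv1, the capsaicin receptor (10.6 and 46.3 against 3.83 and 0.0556 CPM). Calca, the alpha form of CGRP, did not follow the genotype. It read 343 and 855 CPM in WT, 715 CPM in KO 1 and 5.88 CPM in KO 2. Calcb is named after its values were seen. The list's summed level was 1193 and 2013 CPM in WT and 1577 and 502 CPM in KO, so as a sum the genotypes overlapped and KO 2 was lowest. The part that the number of peptidergic cells in each sort had in these values was not tested.

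Markers of other sensory classes and of non-neuronal cells differed most between single libraries. Mrgprd, the receptor of nonpeptidergic nociceptors, read 12.8 and 1.13 CPM in WT and 41.3 and 0.0417 CPM in KO. Of 7 measured markers of nonpeptidergic and itch afferents, 2 were below WT (28.6%, against 15.8% of all genes) and 0 above. Of these 2, Gfra1 (6.48 and 14.5 against 3.24 and 0.931 CPM) reached the mean of 5 CPM through its WT level alone. Among myelinated afferent markers, Pvalb was seen mainly in WT 2 (17.4 CPM, against 0.449, 0.511 and 0.222 CPM in WT 1, KO 1 and KO 2). Ntrk2, the BDNF receptor, was above WT in KO with 39.2 and 26 against 55.6 and 55.2 CPM. Of 15 measured glial and Schwann cell markers, 14 had a negative fold, with a median of -0.43. Without overlap, 5 were below WT (33.3%, against 15.8% of all genes) and 0 above. Sox10, the transcription factor of glia, read 6.01 and 5.98 CPM in WT and 1.20 and 2.02 CPM in KO, a mean under 5 CPM. The summed glial level was 5444 and 6443 CPM in WT, and 3715 and 6399 CPM in KO, so KO 1 was lowest and KO 2 lay within the WT values. The summed level of 21 vascular and fibroblast markers was 472 and 578 CPM in WT and 562 and 460 CPM in KO, and Rgs5, a pericyte gene that neurons can express too, made up 430, 429, 547 and 434 CPM of these sums. Of these 21 markers, 11 were at 0 in WT 1, 8 in KO 1 and 11 in KO 2, but 1 in WT 2. Pecam1, which marks endothelium, read 4.09 CPM in WT 2 and 0 in the other libraries. The leukocyte gene Ptprc and the macrophage gene C1qa were at 0 in all 4 libraries, as were 12 of 21 immune markers in all, and the summed immune level was 13.8 to 30.2 CPM.

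**Figure D3:**
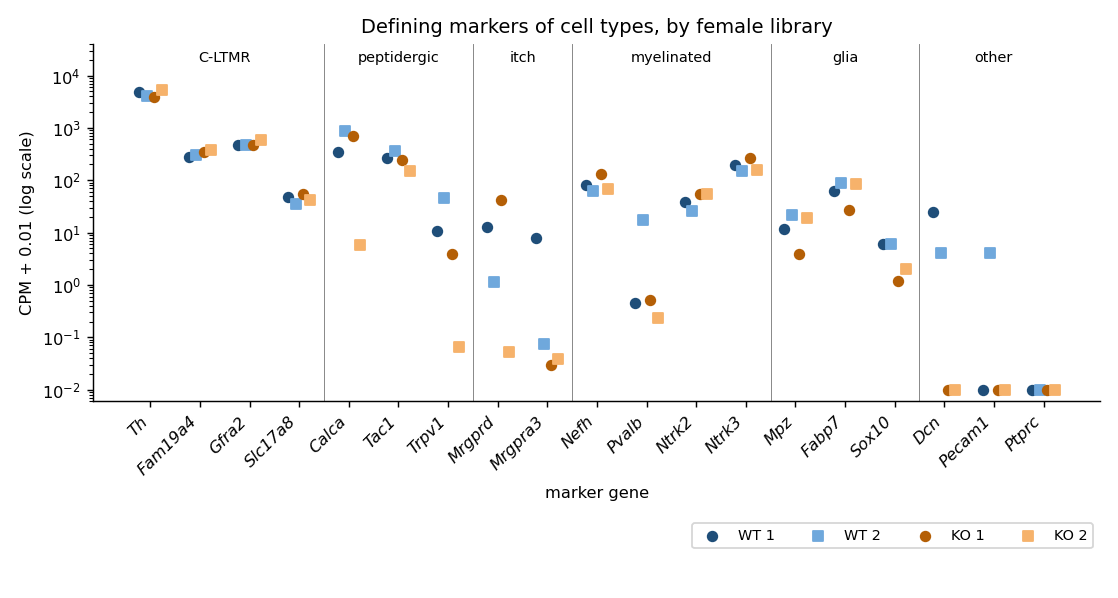
CPM plus 0.01 (log scale) of defining markers of cell types in each female library, with points at 0.01 standing for 0 counts. C-LTMR markers lie close together in all 4 libraries, while Calca and Mrgprd are lowest in KO 2 and Pvalb and Pecam1 are highest in WT 2.

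The described genes were also read through lists of functions beyond sensory markers. For 90 lists with at least 3 measured members, the list's median level was taken in each library. In 15 lists both KO libraries were above both WT libraries, in 9 both were below, and in 66 the genotypes overlapped. No member of any list passed edgeR's test. Measured members are those of 5 CPM or more, above and below WT mean without overlap, and medians are of log2 fold changes. The background to read each count against is 15.1% above and 15.8% below. Some members, such as Smpd2, Hoxd1, Nr1d2, Dscam, Kcns3 and Slc6a9, were under 5 CPM in both libraries of a genotype. They reached the mean of 5 CPM through the other genotype alone, so the list counts are descriptions only. Long and short transcripts differed slightly. The 2938 genes with exon lengths of 54 to 2398 bases had a median log2 fold change of -0.06, and the 2936 genes of 6668 to 123179 bases had 0.09, with KO 2 lowest in the first and WT 2 lowest in the second. The part of transcript length in the list values was not tested. Reads were counted without strand and for every gene they overlap. Ddb2, Lig3, Pfkm, Smpd2, Hdac11, Pfdn2, Pfdn5, Arsa, Slc6a9 and Lrrc31 share 10.2% to 27.8% of their exon bases with another annotated gene, and Nefm and Nefl overlap each other, so their values are uncertain.

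Nuclear pore, lamina and nuclear transport genes had more members above WT than below. Of 54 measured members 40 had a positive fold, 15 were above WT without overlap (27.8%, against 15.1% of all genes) and 4 were below, and the median was 0.18. Nup88, a nucleoporin of the cytoplasmic face, read 61.7 and 56.1 CPM in WT and 98.4 and 94.2 CPM in KO (log2 fold change 0.72 ± 0.18). Nup133 and Nup107, which build the scaffold of the pore, read 13.7 and 15.4 against 38.5 and 25.8 CPM, and 5.93 and 4.31 against 11.3 and 15 CPM. Ranbp17, a transport receptor, went the other way with 10.3 and 20.1 against 5.48 and 4.86 CPM. DNA repair genes had 15 of 61 members above WT and 6 below, with a median of 0.12. Ddb2 and Xpc, which recognise damage by ultraviolet light, read 9.17 and 6.90 against 20.2 and 14.7 CPM, and 12.7 and 10.5 against 21.4 and 18.4 CPM. Lig3, a DNA ligase, was lower with 22.5 and 26.8 against 16.1 and 7.38 CPM.

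Respiratory chain and ribosomal genes had many small negative folds. Of 37 complex I subunits 33 had a negative fold, 8 were below WT without overlap (21.6%, against 15.8% of all genes) and 0 above, and the median was -0.11. Ndufs7, an iron-sulfur subunit, read 379 and 361 CPM in WT and 311 and 300 CPM in KO. Complexes II to IV and ATP synthase had 10 of 39 members below and 1 above, with a median of -0.09. Cox8a, a subunit of cytochrome c oxidase, read 934 and 787 CPM in WT and 703 and 666 CPM in KO. Cytosolic ribosomal proteins had 14 of 59 below and 1 above (median -0.12), and mitochondrial ribosomal proteins 17 of 75 below and 5 above (median -0.05). Rpl8 read 214 and 191 CPM in WT and 142 and 135 CPM in KO. Many ribosomal genes have near-identical pseudogenes, so their counts of uniquely mapped reads are uncertain. In all 4 of these lists the median level of KO 1 was within or above the WT values and KO 2 was the lowest library. For complex I the medians were 0.05 and 0.08 in WT, 0.06 in KO 1 and -0.21 in KO 2 (log2 deviation from each gene's mean). The lower list medians were thus those of 1 KO library.

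Other metabolic lists stayed near the centre. Glycolysis and lactate genes had 6 of 24 members above WT and 3 below, with a median of 0.03. Pfkm and Pfkl, isoforms of phosphofructokinase, read 234 and 229 against 281 and 333 CPM, and 181 and 144 against 201 and 229 CPM. TCA cycle genes had 6 of 31 above and 1 below (median 0.02). Fatty acid oxidation had 3 of 28 above and 2 below (median 0.08), with Hsd17b4, a peroxisomal enzyme, at 40.1 and 39.2 against 64.9 and 56.5 CPM. Cholesterol synthesis and uptake had 2 of 30 above and 4 below (median 0.03). Sphingolipid genes had 5 of 25 above and 3 below, among them Asah1, the acid ceramidase (42.4 and 49.9 against 22.5 and 29.9 CPM), and Smpd2, a neutral sphingomyelinase (8.28 and 9.25 against 3.52 and 2.02 CPM). Mitochondrial import and quality control had 8 of 52 above and 9 below (median 0.00). Polg, the polymerase of mitochondrial DNA, read 34 and 32.7 CPM in WT and 15 and 18.2 CPM in KO, and Tfam, which packages that DNA, 15.6 and 13.9 against 4.89 and 8.23 CPM. Nucleotide and one carbon genes had 6 of 32 above and 3 below (median 0.07). Aprt, an enzyme of purine salvage, was lower with 44.5 and 38.6 against 26 and 20.9 CPM.

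**Figure D4:**
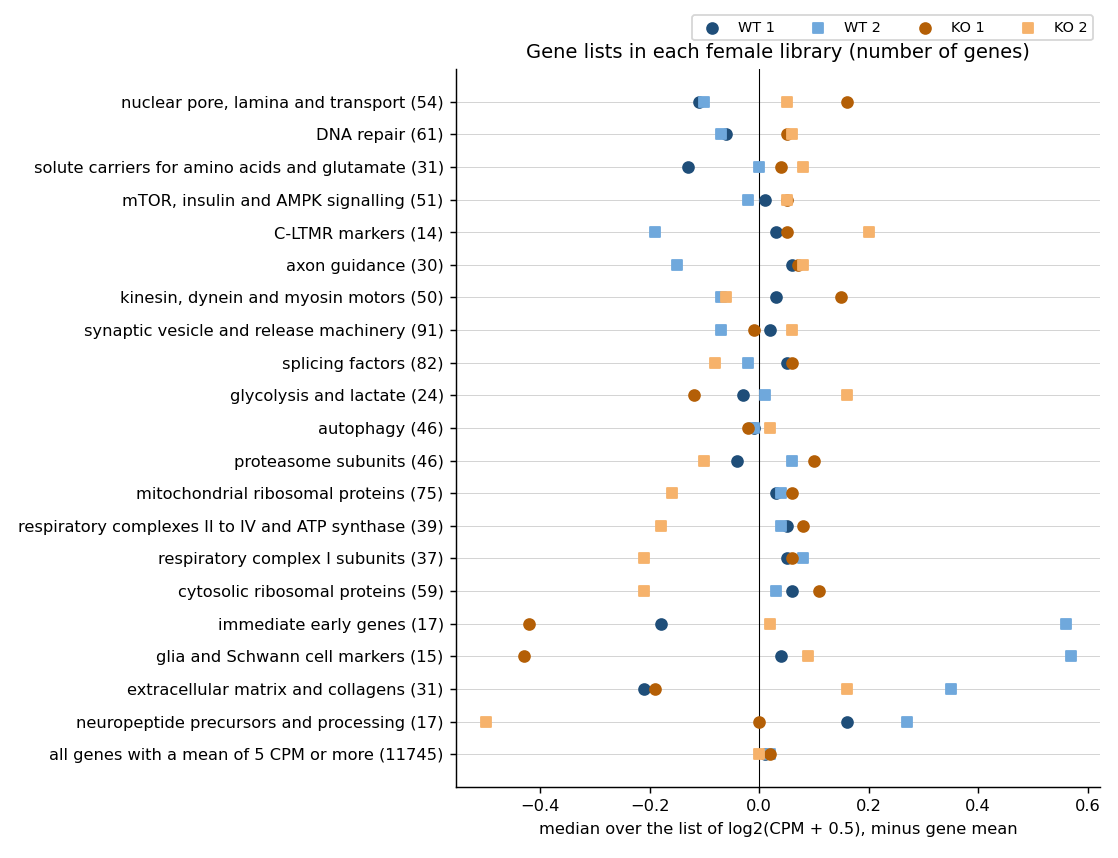
Median over each gene list of log2(CPM + 0.5), minus each gene's mean over the 4 female libraries, 1 symbol per library and the number of genes in parentheses. Both KO libraries lie to the right of both WT libraries for nuclear pore and DNA repair genes, while KO 2 alone lies to the left for respiratory and ribosomal genes, and WT 2 lies furthest to the right for immediate early genes.

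Immediate early genes, which neurons and other cells switch on soon after a stimulus, had negative folds in 16 of 17 measured members. In 5 both KO libraries were below both WT libraries, in 0 above, and the median was -0.36. Ier2 read 47 and 54.8 CPM in WT and 18.7 and 24.1 CPM in KO (log2 fold change -1.24 ± 0.27). Zfp36, which destabilises cytokine messenger RNA, read 76.4 and 121 against 45 and 69.7 CPM, and Junb, an AP-1 subunit, 200 and 298 against 177 and 198 CPM. The list's median level was highest in WT 2 (0.56) and lowest in KO 1 (-0.42), with WT 1 at -0.18 and KO 2 at 0.02, so as a median the genotypes overlapped. Glial markers had the same highest and lowest libraries, with medians of 0.57 in WT 2 and -0.43 in KO 1. The part of glial RNA in the immediate early values was not tested.

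Transcription and chromatin genes divided in both directions. Of 30 measured basic helix-loop-helix genes, 3 were above WT and 8 below, Bhlha9 among them, and the median was -0.07. Max, the partner of Myc, read 13.2 and 9.87 against 16.1 and 19.1 CPM, and Tcf12, an E protein that pairs with many factors of the class, 2.40 and 6.06 against 7.60 and 6.96 CPM. Id3, an inhibitor that sequesters E proteins, read 83.7 and 114 CPM in WT and 36.1 and 61.8 CPM in KO, and Mxd4, a Myc antagonist, 135 and 115 against 78.5 and 84.2 CPM. Sensory lineage factors had 11 positive and 9 negative folds and a median of 0.01, with 6 of 20 members below WT and 0 above. Insm1, a zinc finger factor of neuroendocrine cells, read 25.4 and 21.6 CPM in WT and 8.09 and 9.58 CPM in KO (log2 fold change -1.40 ± 0.33), and Tlx3 169 and 192 against 137 and 147 CPM. Chromatin writers and erasers had 13 of 61 above and 7 below. Kdm4c, a histone demethylase, read 6.51 and 3.43 against 15.5 and 11.4 CPM, Hdac11, a histone deacetylase, 100 and 88.8 against 57.2 and 55.7 CPM, and Tet1, which oxidises methylated cytosine, 11.2 and 10.5 against 5.66 and 3.03 CPM. Circadian genes had 4 of 16 above and 1 below (median 0.23), with the repressor Nr1d2 at 1.26 and 3.48 against 9.13 and 12.1 CPM. Hox genes had 4 of 12 above (33.3%, against 15.1% of all genes), among them Hoxa9, and 5 below (41.7%, against 15.8%). Among the 5 was Hoxd1 (11.6 and 9.33 against 1.55 and 4.11 CPM), which reached the mean of 5 CPM through its WT level alone. Of 206 measured zinc finger genes named Zfp, 35 were above and 26 below.

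RNA processing, translation and protein quality control lists had counts in both directions. Splicing factors had 9 of 82 above and 13 below. Prpf6, a component of the tri-snRNP, read 46.6 and 45.7 against 74.4 and 68.4 CPM, and Celf4, a neuronal RNA-binding protein, 49.7 and 56.7 against 26.8 and 17.1 CPM (log2 fold change -1.28 ± 0.30). Initiation and elongation factors had 6 of 63 above and 11 below, with Eef1a2, the elongation factor of neurons and muscle, at 59.3 and 56.5 against 35.0 and 40.2 CPM. Proteasome subunits had 4 of 46 above and 7 below (median -0.01). Heat shock proteins and cochaperones had 11 of 67 above and 10 below, with Hspa2 at 44.4 and 38.9 against 63.0 and 68.6 CPM. Of 14 CCT chaperonin and prefoldin genes, 5 were above, Cct4 and Cct8 among them, and 2 below, both prefoldins, Pfdn2 and Pfdn5. Autophagy genes had 6 of 46 above and 5 below. Lysosomal genes had 4 of 40 above, with Psap, the saposin precursor, at 723 and 614 against 793 and 1011 CPM, and 8 below, with Arsa, arylsulfatase A, at 60.3 and 58.9 against 41.6 and 30.6 CPM.

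Signalling lists had members above and below WT. Of 51 mTOR, insulin and AMPK genes, 12 were above WT and 5 below, with a median of 0.11. Prkaa2, a catalytic subunit of AMPK, read 49.5 and 50.4 against 67.0 and 70.1 CPM, while Stk11, the kinase that activates AMPK, read 117 and 99.1 against 68.7 and 79.5 CPM. Deptor, an inhibitor of mTOR, read 58.9 and 49.4 against 38.6 and 30.8 CPM. MAP kinase genes had 11 of 54 above, with Mapk11 at 126 and 120 against 181 and 174 CPM (log2 fold change 0.53 ± 0.15), and 7 below. Dusp6, the phosphatase that switches off ERK, read 24.5 and 27.6 against 39.3 and 67.5 CPM. Kinases A, C and the calmodulin kinases had 2 of 49 above and 10 below. Camk2n1, an inhibitor of CaMKII, read 66.9 and 64.2 against 45.9 and 39.5 CPM, and Prkar2b, a regulatory subunit of kinase A, 43.8 and 43.2 against 24.5 and 27.4 CPM. Of 34 receptor tyrosine kinases and cytokine receptors, 4 were above, among them Il6st, the shared receptor chain of the interleukin-6 family (57.9 and 71.4 against 152 and 88.8 CPM), and 5 below. Interferon response and antigen presentation had 3 of 30 above and 5 below, with 22 negative folds and a median of -0.33. H2-K1, a class I heavy chain, read 78.6 and 88.9 against 58.6 and 49.6 CPM, and its partner B2m 74.1 and 84.1 against 20.7 and 51.5 CPM, while H2-D1 was above with 665 and 696 against 727 and 776 CPM.

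The cytoskeleton and adhesion lists had members on both sides. Of 50 kinesins, dyneins and myosins 8 were above and 7 below (median 0.12). Myo5a, the myosin that moves vesicles and organelles, read 155 and 110 CPM in WT and 288 and 224 CPM in KO. Neuronal intermediate filaments had 2 of 7 above and 0 below, Nefm with 698 and 687 against 912 and 814 CPM and Nefl with 1419 and 1319 against 1609 and 1595 CPM. Cilium and intraflagellar transport genes had 8 of 48 above and 5 below, so most members did not share the large fold of Ift122. Wdr35, a subunit of the same transport complex, read 7.45 and 11 CPM in WT and 19.4 and 14.2 CPM in KO. Tubulins and microtubule proteins had 7 of 63 above and 14 below, with Clasp2, which steadies growing ends, at 59.0 and 46.5 against 117 and 74.9 CPM. Cell adhesion genes had 8 of 44 above and 7 below. Nfasc, the neurofascin of the axon initial segment, read 48.3 and 46.5 against 80.1 and 71.3 CPM (log2 fold change 0.68 ± 0.19), and Dscam 1.73 and 4.25 against 13.3 and 12.5 CPM. Protocadherins had 35 negative folds among 38 members, with 7 below, 2 above and a median of -0.14. Clustered protocadherin genes share exons, and a read in them was counted for each gene. Pcdh9, which is outside the clusters, read 8.36 and 9.87 against 20.4 and 21.5 CPM. Extracellular matrix genes had 2 of 31 above, with Mmp17 at 96.1 and 82.2 against 130 and 200 CPM, and 3 below, with Adamts5 at 14.9 and 17.4 against 2.02 and 5.63 CPM.

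Synaptic, channel and transporter genes covered the excitable properties of the cells. Vesicle and release genes had 16 of 91 above and 8 below (median 0.05). Syt14, a synaptotagmin, read 7.95 and 7.28 against 19 and 19.9 CPM, and Syt3, a calcium-sensing synaptotagmin, 74.2 and 60.9 against 25.8 and 38.4 CPM. Synaptic adhesion genes had 9 of 47 above, with Adam22, the receptor of LGI1, at 99.8 and 125 against 182 and 171 CPM (log2 fold change 0.66 ± 0.18), and 4 below. Potassium and HCN channels had 7 of 50 above and 9 below. Kcnk13, a leak channel, read 24.8 and 29.2 CPM in WT and 49.0 and 51.7 CPM in KO (0.91 ± 0.23), and Kcnk3, another of the family, 18.9 and 23.4 against 5.50 and 8.06 CPM (-1.62 ± 0.40). Kcns3, a silent subunit that modifies other potassium channels, read 7.20 and 13.2 against 0.432 and 0.0417 CPM. Sodium channel genes had 2 of 14 above, Scn1a with 26.4 and 32.4 against 62.7 and 38.1 CPM and Scn4b with 111 and 80.5 against 141 and 135 CPM, and 2 below. Calcium channel genes had 2 of 14 above, Cacna1h and Cacna1i, and 3 below. TRP, Piezo, ASIC and other sensing channels had 2 of 40 above and 5 below (median -0.02). Glutamate receptors had 2 of 19 above, with Grm7, an inhibitory presynaptic receptor, at 6.77 and 5.37 against 20.4 and 14.1 CPM (1.51 ± 0.40), and 3 below. Neuropeptide precursors and processing enzymes had 1 of 17 above and 7 below (41.2%, against 15.8% of all genes), with a median of -0.36. Among the 7, Gal and Adcyap1 were under 5 CPM in both KO libraries. These 2 reached that mean through their WT level alone, so the count is a description only. Pcsk2, a prohormone convertase, read 25.8 and 21.1 against 13.2 and 8.91 CPM. Gal, Adcyap1, Tac1, Calca and Calcb are in this list and in that of peptidergic afferent markers. The median level was 0.16 and 0.27 in WT and 0.00 and -0.50 in KO for neuropeptide genes, beside 0.84 and 1.98 in WT and -0.46 and -2.02 in KO for the peptidergic markers, and KO 2 was lowest in both. The part of peptidergic cells in the neuropeptide values was not tested. Catecholamine synthesis and handling genes had 1 of 9 above and 2 below, and a median of 0.00. Amino acid transporters had 10 of 31 above and 4 below (median 0.16, or 0.01 with tested members under 5 CPM included), with Slc6a9, a glycine transporter, at 3.04 and 1.49 against 6.99 and 9.94 CPM.

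Trafficking lists had shares near those of all genes, which were 15.1% above WT and 15.8% below. Small GTPases and endosomal sorting had 25 of 146 above (17.1%) and 18 below (12.3%), with a median of 0.03. Vps33b, which acts in fusion of endosomes, read 16.7 and 13.3 against 30.4 and 36.7 CPM (log2 fold change 1.17 ± 0.31), and Vps45 16.5 and 18.6 against 31.3 and 29.1 CPM. Secretory pathway genes had 19 of 103 above (18.4%) and 12 below (11.7%), with a median of 0.09. Sec16a, which marks the exit sites of the endoplasmic reticulum, read 27.1 and 25.9 CPM in WT and 46.7 and 52.8 CPM in KO (0.92 ± 0.23), and the coat subunit Copb1 35.5 and 40.5 against 67.5 and 52.5 CPM.

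The KO effect in females was set against that in males in a fit of all 8 libraries. No gene passed an adjusted p of 0.05 for the difference of the 2 effects in edgeR's quasi-likelihood test (0 of 22013 genes, 0%). An unadjusted p under 0.05 was reached by 1041 of the 22013 genes, again under a 0.05 share. DESeq2's interaction term passed 341 genes, 93 with the more positive effect in females and 248 with the more negative one. Bhlha9 was as low in male KO, at 0.159 and 0.273 CPM against 152 and 163 CPM in male WT. Ift122 read 3.69 and 9.59 CPM in male WT and 16.2 and 55.3 CPM in male KO, so its sign was opposite to that in females. Etv1 read 2.76 and 1.40 CPM in male WT and 43.1 and 5.93 CPM in male KO. Lbr and Gfra3 also had no overlap in males, with both male KO libraries above both male WT libraries. Gal, Kit, Adcyap1 and Pcp4 overlapped between genotypes in males. Kdm6a overlapped in males as well, and both of its male WT values, 10.8 and 5.76 CPM, were above the female WT values of 3.77 and 3.37 CPM.

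**Figure D5:**
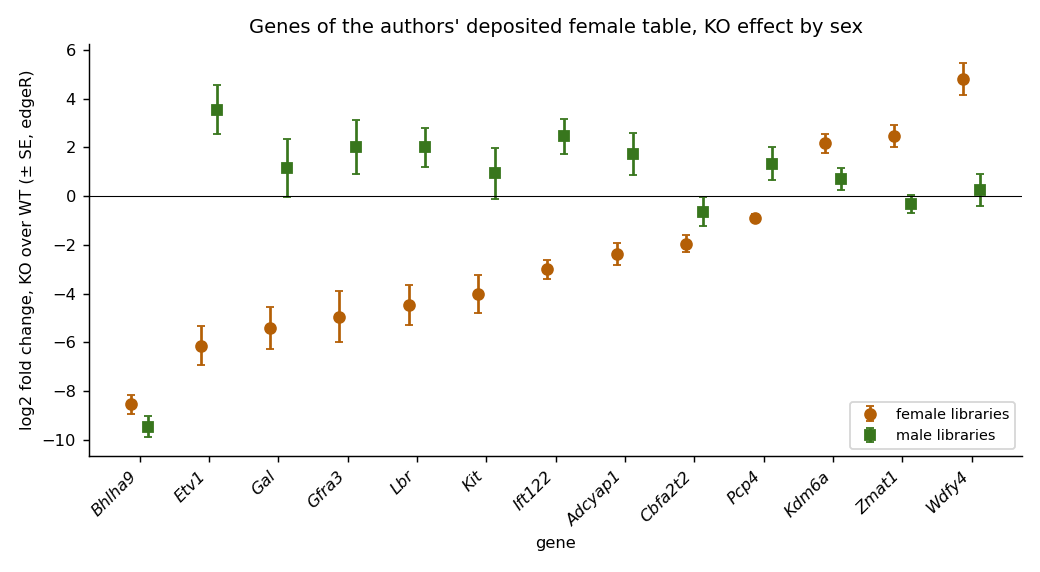
Log2 fold change of KO over WT with its SE (edgeR) for the 13 genes of the authors' deposited female table, in female (orange circles) and male (green squares) libraries. Bhlha9 is far below 0 in both sexes. Etv1, Gfra3, Lbr and Ift122, whose genotypes did not overlap in males, are below 0 in females and above 0 in males.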

How the data were processed

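Per the labels' protocols, total RNA of sorted GFP+ cells was extracted, 500 pg was made into cDNA with SMART-Seq v4 and 13 PCR cycles, and libraries were made with Nextera XT and 12 cycles. The protocols name no molecular identifiers, and copies made by PCR are among the counts. Per the file headers, the deposited counts were made by the authors with featureCounts 1.6.1 over exons of Ensembl release 97 on mm10, without strand and with reads counted for every gene they overlap, from alignments named as unique. The submitters' processing notes name Subread 1.6.4 and DESeq2 1.14.1. The authors' deposited female table holds log2 fold changes, a test statistic (a score) and p-values; its log2 values were printed beside the counts, and it was not used to count unchanged genes. The male table was not used here.

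CPM was each count divided by the library total. The test was edgeR 4.0.16 (R 4.3.3) with TMM scaling, filterByExpr and robust quasi-likelihood F tests on the 4 female libraries, two-sided, with Benjamini-Hochberg adjustment over all 19422 genes kept. DESeq2 1.42.0 and limma 3.58.1 gave alternatives. The edgeR code was tested on simulated data. The standard error is the size of the log2 fold change over the square root of F. Above and below WT mean that both KO libraries lay beyond both WT libraries in CPM. Gene lists, 93 in all, and members were chosen with earlier results of these data known. Named genes were the deleted gene, those of the authors' table, the 20 higher and 20 lower without overlap and with the smallest edgeR p, up to 3 per list and direction, and the defining markers. Promoters were taken from RefSeq tables of GRCm38.p6 by symbol, 1 start per gene, and those on chromosome 18 were left out. Values are printed for only part of the named genes and gene lists.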

Additional observations from a re-analysis of the deposited data

Results flagged for a closer look

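The KO effect differed between the sexes for 9 genes of the authors' female table by DESeq2's interaction term, which takes the effect in males from the effect in females on the log2 scale. The same differences did not pass in edgeR's quasi-likelihood test, where the adjusted p was 0.98 for each. More negative in females were Etv1 by -9.69 ± 1.30 (SE), Gfra3 by -6.95 ± 1.38, Gal by -6.58 ± 1.93, Lbr by -6.46 ± 1.15, Ift122 by -5.45 ± 0.95, Kit by -4.94 ± 1.44 and Adcyap1 by -4.10 ± 1.15. DESeq2's adjusted p for these ran from 6.72e-10 for Etv1 to 0.0413 for Gal. More positive in females were Wdfy4 by 4.57 ± 1.02 (DESeq2 adjusted p = 0.0013) and Zmat1 by 2.79 ± 0.50 (DESeq2 adjusted p = 1.08e-05). These genes were chosen by the authors on the female libraries, so a larger effect in females is not independent evidence. Male replicates were far apart for several of them, as with 43.1 and 5.93 CPM of Etv1 and 152 and 9.42 CPM of Gal in male KO.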

How the results depend on the processing

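The number of genes past the threshold in females was 0 in edgeR under DESeq2's size factors, library totals, no robust estimation and each library left out, and in limma-voom. It was 1, Bhlha9, with all 8 libraries (log2 fold change -8.56), with genes of 5 CPM or more only (-8.55) and without a filter (-8.54), and 168 with DESeq2 (Bhlha9 -8.56). Bhlha9 ranged from -9.0 to -8.15 with a library left out. Its adjusted p was over 0.05 in the remaining settings, from 0.136 without robust estimation to 1 with limma-voom. The sex difference passed 0 genes in edgeR and 341 with DESeq2. Counts without overlap were 1138 above and 1155 below WT among genes of 20 CPM or more. With a library left out, they were 3621 to 4014 above and 3639 to 4142 below, since fewer libraries must then be separated. The DESeq2 and no-overlap counts with a library left out were chosen after seeing the data. Of 463 named genes, 1 changed sign, Tmem63b (0.27 with 4 libraries), which ran from -0.02 without KO 2 to 0.51 without KO 1. List medians changed sign in 16 to 26 of 90 lists with 1 library left out.

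Deviations of same-numbered female WT and KO libraries correlated at 0.0374. The correlation was -0.0258 for female and male WT, 0.236 for female and male KO, and 0.136 for male WT and KO. The titles do not say whether same-numbered libraries were handled together, and a low correlation cannot show that they were not. With the replicate block 0 genes passed in females, Bhlha9 had a log2 fold change of -8.56 and an adjusted p of 1 (edgeR), and 0 genes passed for the sex difference.

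The counting floor lay far under 5 CPM, but the error of a fold still fell as the level rose. With 2 libraries a group and 2 residual degrees of freedom, the median standard error of a log2 fold change was 0.485 at 5 to 20 CPM and 0.196 at 100 CPM or more.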
